A study of Mus musculus with 2 samples.

Results

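The genes studied were 8 transcription factor genes of the circadian output and of the nuclear receptor arm of the clock, namely Dbp, Tef, Hlf, Nfil3, Rora, Rorb, Bhlhe40 and Bhlhe41. They were chosen by name from the 21911 protein-coding genes of GENCODE release M21, and all 8 were found. Each gene's window was its body plus 10 kb either side, and the peaks, footprints and transcript starts in that window were read. Open chromatin was mapped by DNase-seq, which sequences the ends left where DNase I has cut accessible DNA. The tissue was the gastrocnemius, the large calf muscle, of B6CASTF1/J females from The Jackson Laboratory at 2 months of age, which are F1 hybrids of C57BL/6J and CAST/EiJ. There was 1 group of 2 libraries, numbered as biological replicates 1 and 2. They came from separate biosamples under 1 donor identifier, so whether they are separate animals is not settled. With no second group, and genes not being replicates, values are given per library and no test was made.

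These genes carry the rhythm of the core clock outward. CLOCK and BMAL1 bind E-boxes in many clock-controlled genes, the PAR bZIP activators encoded by Dbp, Tef and Hlf bind D-boxes, and the repressor encoded by Nfil3 binds the same D-boxes. Receptors encoded by Rora and Rorb activate genes through ROR elements, which REV-ERB repressors also occupy, and the Bhlhe40 and Bhlhe41 proteins repress at E-boxes. In skeletal muscle, the clock is known for its rhythmic control of fuel use and of many muscle genes. The time of day at which the tissue was taken is not given in the sources used here.

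Stretches of 8 shared peaks, that is sites at which the peaks of both libraries overlapped, are printed here because they hold the binding words of these factors or, at Hlf, a CRE in footprints of both libraries. They are from the C57BL/6J reference of build mm10 (GRCm38.p6), from which the CAST/EiJ allele may differ, read along the gene's strand, and leave out annotated coding bases and all but short ends of untranslated exons. Capitals mark the E-box CACGTG, the E-prime box CACGTT, the D-box TTATGTAA, the ROR elements TAGGTCA and TGGGTCA, and the cyclic AMP response element (CRE) TGACGTCA, on either strand. The Dbp promoter stretch is chr7:45704801-45705087 on the plus strand, and the Dbp gene body stretch is chr7:45707690-45707880 on the plus strand. The stretch before the second Tef promoter is chr15:81810746-81811045 on the plus strand, and the Tef downstream stretch is chr15:81836461-81836760 on the plus strand. The Hlf promoter stretch is chr11:90390896-90391100 on the minus strand, and the Nfil3 intron stretch is chr13:52974761-52974960 on the minus strand. The Bhlhe40 promoter stretch is chr6:108660341-108660560 on the plus strand, and the Bhlhe41 upstream stretch is chr6:145866641-145866860 on the minus strand.
Dbp promoter: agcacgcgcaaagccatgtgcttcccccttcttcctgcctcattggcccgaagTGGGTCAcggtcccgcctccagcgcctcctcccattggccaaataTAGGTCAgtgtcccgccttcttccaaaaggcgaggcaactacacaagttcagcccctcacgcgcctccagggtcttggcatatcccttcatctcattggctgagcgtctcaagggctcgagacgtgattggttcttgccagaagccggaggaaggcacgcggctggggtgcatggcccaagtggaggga
Dbp gene body: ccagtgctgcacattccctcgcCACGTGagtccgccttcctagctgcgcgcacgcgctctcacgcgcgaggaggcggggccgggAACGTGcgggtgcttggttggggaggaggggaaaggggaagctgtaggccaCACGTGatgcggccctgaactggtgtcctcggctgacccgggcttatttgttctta
Tef upstream of the second promoter: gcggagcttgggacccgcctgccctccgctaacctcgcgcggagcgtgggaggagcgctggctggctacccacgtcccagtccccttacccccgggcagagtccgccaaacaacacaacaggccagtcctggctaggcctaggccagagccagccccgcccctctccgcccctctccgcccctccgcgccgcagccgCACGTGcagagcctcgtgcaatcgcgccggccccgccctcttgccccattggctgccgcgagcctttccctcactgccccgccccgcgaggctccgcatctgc
Tef downstream: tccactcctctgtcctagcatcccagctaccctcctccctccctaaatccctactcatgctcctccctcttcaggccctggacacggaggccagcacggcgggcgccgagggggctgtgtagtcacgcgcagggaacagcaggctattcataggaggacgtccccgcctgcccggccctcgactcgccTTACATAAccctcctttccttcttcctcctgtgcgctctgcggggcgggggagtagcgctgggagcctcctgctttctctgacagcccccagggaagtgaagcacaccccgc
Hlf promoter: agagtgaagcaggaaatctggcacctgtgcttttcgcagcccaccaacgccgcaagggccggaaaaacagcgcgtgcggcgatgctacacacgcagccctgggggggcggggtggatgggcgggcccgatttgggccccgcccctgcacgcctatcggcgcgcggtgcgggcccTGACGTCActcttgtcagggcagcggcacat
Nfil3 intron: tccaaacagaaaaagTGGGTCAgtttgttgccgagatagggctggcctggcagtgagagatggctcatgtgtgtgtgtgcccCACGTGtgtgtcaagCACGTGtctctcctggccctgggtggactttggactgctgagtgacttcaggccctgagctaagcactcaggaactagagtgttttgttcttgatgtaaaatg
Bhlhe40 promoter: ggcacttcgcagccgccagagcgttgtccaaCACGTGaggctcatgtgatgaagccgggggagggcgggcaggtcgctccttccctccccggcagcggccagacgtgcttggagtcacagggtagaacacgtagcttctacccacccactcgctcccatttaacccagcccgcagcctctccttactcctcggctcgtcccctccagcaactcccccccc
Bhlhe41 upstream: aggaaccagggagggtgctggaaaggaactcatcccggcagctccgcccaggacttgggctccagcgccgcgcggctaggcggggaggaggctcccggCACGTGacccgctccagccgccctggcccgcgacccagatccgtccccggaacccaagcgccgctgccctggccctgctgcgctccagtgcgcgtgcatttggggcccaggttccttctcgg

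Replicate 1 had 66984 peaks and replicate 2 had 258342 peaks, and 49160 shared peaks were formed from those that overlapped by at least 1 bp. Sequencing depth is unknown, and the peak signal is the authors' value on an unstated scale, used here within each library. Promoters of all 8 skeletal muscle marker genes were accessible in both libraries, against 0 of 4 hepatocyte markers. Markers of endothelium (4 of 5), fibroblasts (4 of 4), neurons (4 of 6) and Schwann cells (1 of 4) were accessible too. The share over all protein-coding genes was 60.2%, so such counts alone do not show that a cell type was present. Fewer cells with an open site and a less open site in each cell cannot be told apart in such bulk samples. Macrophage markers differed between the libraries, with accessible promoters for 0 of 4 in replicate 1 and 3 of 4 in replicate 2.

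All 8 genes had a peak within 1 kb of a transcript start in both libraries. Over all protein-coding genes, the same was true of 60.2%. Each window also held at least 1 shared peak, which 71.5% of all genes had. The 8 windows held 99 shared peaks, 127 peaks of replicate 1 and 229 peaks of replicate 2, and Rora alone held 36 of the shared peaks. The median density over the 8 genes was 2.85 shared peaks per 10 kb, against 0.325 over all protein-coding genes. In replicate 1 the median was 3.29 peaks per 10 kb over the 8 genes and 0.382 over all genes, and in replicate 2 it was 4.04 over the 8 genes and 0.973 over all genes.

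The genes fell over a wide range of density. Dbp was highest with 5.57 shared peaks per 10 kb, above 99.8% of all genes, followed by Bhlhe41 with 3.66, Tef with 3.15, Bhlhe40 with 3.04 and Nfil3 with 2.66. Hlf had 0.672, Rora 0.477 and Rorb 0.150 shared peaks per 10 kb, the last below the median of all genes. In replicate 2 alone Rorb moved ahead of both others, with 1.35 peaks per 10 kb at Rorb, 1.21 at Hlf and 1.14 at Rora. All of these were above that library's median over all genes, 0.973. Density can vary with window length, so each gene was also set beside genes whose windows were within 25% of its own length. On that footing Rora, with a window of 754 kb, exceeded all 126 such genes, whose median was 0.0498 per 10 kb. Rorb exceeded 37.7% of 958 genes of like length (median 0.202), and Hlf exceeded 81.9% of 3185 (median 0.319). The other 5 genes exceeded between 97.2% and 99.5% of genes of like length in shared peaks. Their shares were 93.7% to 99.8% by replicate 1 peaks and 81.2% to 95.5% by replicate 2 peaks. For Rorb they were 28.9% by replicate 1 and 74.5% by replicate 2. The shared-peak density of Dbp counts 8 peaks nearer other genes, and was 2.39 per 10 kb without them.

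**Figure D1:**
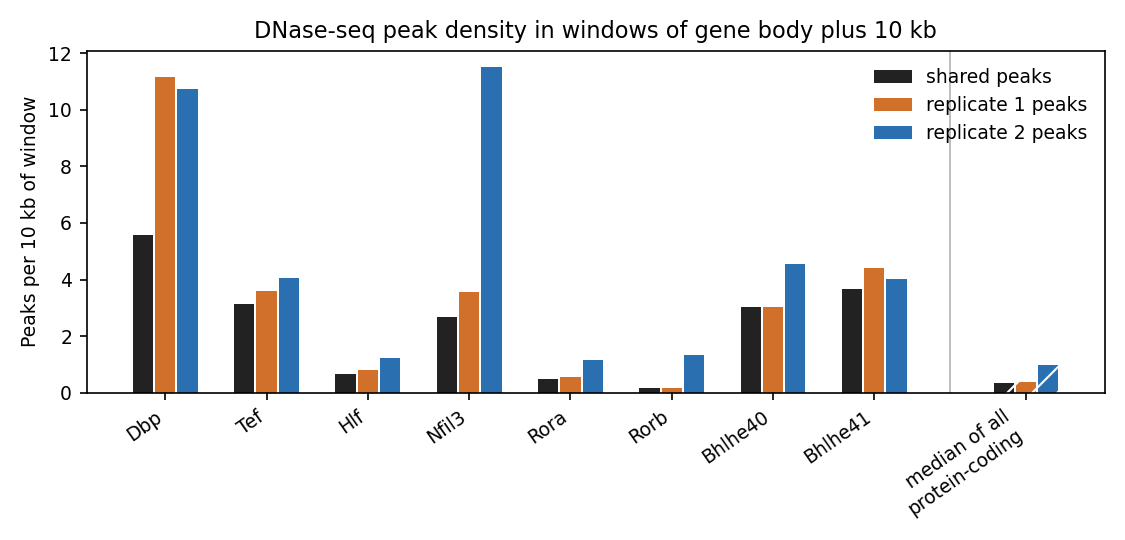
Peaks per 10 kb (vertical axis) in the window of each of the 8 genes, and to their right the median over all protein-coding genes (hatched), as shared peaks and as peaks of each library. Dbp, Tef, Nfil3, Bhlhe40 and Bhlhe41 stand at 2.66 or more shared peaks per 10 kb and Rorb at 0.150, against a median of 0.325.

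The genes whose densities in all these counts lay nearest, among windows of like length, were Dmpk for Dbp, Aloxe3 for Tef, Ubqln1 for Hlf and Ddx39 for Nfil3. For Rora it was Kalrn, for Rorb Fyb, for Bhlhe40 Gm10570 and for Bhlhe41 Gpd1. Likeness was the distance between log2(1 + peaks per 10 kb) values of replicate 1, replicate 2 and the shared peaks, and it ranged from 0.0346 for Hlf to 0.227 for Dbp. Kalrn had 19 shared peaks in a window of 624 kb, where Rora had 36.

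Dbp, the D-box activator whose transcript swings widely over the day in many tissues, had 14 shared peaks in a window of 25.1 kb. Its promoter peak had a signal of 14.0 in replicate 1 and 39.4 in replicate 2, stronger than 99.8% and 99.9% of all peaks of those libraries. It ranked 127 of the 49160 shared peaks in replicate 1 and 141 in replicate 2. Among the 13029 genes with a shared promoter peak, 98.9% had a weaker best promoter peak by mean rank. Replicate 1 and replicate 2 each had 8 footprints in this peak, short runs protected from cutting, and they formed 8 overlapping pairs between 287 bp upstream and 11 bp downstream of the first start.

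A chain of open sites ran through the short Dbp gene. Shared peaks centred 972, 1868, 2662 and 3498 bp into the gene had signals of 2.76, 3.27, 4.31 and 1.89 in replicate 1 and of 2.99, 4.63, 8.08 and 2.73 in replicate 2. The one 2662 bp in, at chr7:45707601-45707880, was the strongest in the body and holds both E-boxes and the E-prime box printed above, the last on the opposite strand. The first E-box touched a footprint in replicate 1 and the second touched one in replicate 2, so neither was covered in both libraries. In the promoter stretch the ROR element TAGGTCA touched a footprint in replicate 1, and TGGGTCA touched none. The pair of later Dbp start clusters, 2016 and 2801 bp into the gene, belong to single transcripts that are not protein-coding, and the peaks beside them may equally be counted as gene body sites.

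Neighbouring genes crowd the Dbp window. Of its 14 shared peaks, 6 lay nearer a start of Sphk2, 1 nearer Car11 and 1 nearer Rpl18, which left 6 peaks, or 2.39 per 10 kb, nearest Dbp itself. The strongest of those near Sphk2, a sphingosine kinase gene, was centred 118 bp from one of its starts, with signals of 8.35 and 22.4 in replicates 1 and 2. The other with a high signal lay 4 bp from another Sphk2 start, at 5.28 in replicate 1 and 11.6 in replicate 2, and holds a CRE within footprints of both libraries. Outside Dbp, only 1 of the members' shared peaks in the flanks lay nearer another gene, past the 3′ end of Rora beside the start of Ice2. Peaks inside a member's body were not counted this way, such as an intronic one 709 kb into Rora that lay nearer an Ice2 start.

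Tef, a PAR bZIP activator related to Dbp, had 14 shared peaks in a window of 44.4 kb and strong peaks at separate promoters. At the first start cluster the leading peak, chr15:81802461-81802740, had signals of 12.0 in replicate 1 and 30.8 in replicate 2, stronger than 99.7% and 99.9% of peaks. Its footprints numbered 4 in replicate 1 and 3 in replicate 2 and gave 3 pairs. At the second start cluster, 8625 bp into the gene, the leading peak had signals of 7.92 and 22.2 in replicates 1 and 2, stronger than 98.7% and 99.7% of peaks.

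Close before that second promoter lay a further peak with signals of 5.73 in replicate 1 and 13.1 in replicate 2, and another with signals of 3.93 and 7.92. The former holds the E-box printed above and a further E-box beyond the printed stretch. The most downstream start cluster of Tef, 18172 bp in and without protein-coding transcripts, had no peak in either library. Beyond the 3′ end, 6 shared peaks followed. The strongest, at chr15:81836461-81836760, had signals of 5.84 in replicate 1 and 11.5 in replicate 2 and holds the D-box printed above, TTATGTAA on the opposite strand. That D-box touched footprints of both libraries, the only D-box among the members' shared peaks to do so. Shared peaks 29.2 and 32.0 kb from the first start had signals of 2.20 and 4.38 in replicate 1 and of 5.34 and 5.41 in replicate 2.

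Hlf, another PAR bZIP activator, was far less marked, with 5 shared peaks in 74.4 kb. Its promoter peak had signals of 1.97 in replicate 1 and 2.81 in replicate 2, stronger than 83.9% and 93.8% of peaks. Among genes with a shared promoter peak, 32.1% had a weaker best peak than Hlf. Introns held the strongest Hlf peak, 21.1 kb into the gene, at 2.08 in replicate 1 and 3.70 in replicate 2, and another 35.5 kb in, at 1.80 and 2.77.

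The CRE of the Hlf promoter printed above, the site that CREB and related bZIP factors recognise, touched footprints of both libraries, whose overlap spans 23 to 30 bp upstream of the GENCODE start. A start cluster 8960 bp into the gene had a shared peak with signals of 1.36 in replicate 1 and 2.80 in replicate 2. A cluster 1205 bp in had peaks of replicate 2 alone, the strongest at 0.947, and a cluster 2688 bp in had none.

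Nfil3, which encodes the repressor that competes for D-boxes, had 9 shared peaks within about its first 6 kb and its upstream flank. The leading promoter peak, centred 218 bp upstream, had signals of 3.61 in replicate 1 and 6.52 in replicate 2, stronger than 93.3% and 97.7% of peaks. Promoter peaks centred 508 bp into the gene and 642 bp upstream had signals of 1.59 and 1.97 in replicate 1 and of 2.16 and 2.17 in replicate 2. A peak centred 1032 bp upstream had 2.22 in replicate 1 and 2.55 in replicate 2. Intron sequence held 4 shared peaks between 1673 and 6208 bp from the start. The farthest had signals of 2.14 in replicate 1 and 3.28 in replicate 2 and carries paired E-boxes at bases 83 to 88 and 98 to 103 of its stretch, with a ROR element at bases 16 to 22. The E-box at bases 98 to 103 touched footprints of both libraries, the only one of 21 E-boxes in the members' shared peaks to do so, and the E-box at bases 83 to 88 and the ROR element touched footprints of replicate 2 alone.

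Beyond the promoter the libraries differed widely at Nfil3. Replicate 2 had 39 peaks in its window and replicate 1 had 12, a ratio of 3.25, where the median over genes was 2.25. The ratio of all peaks of the libraries was 3.86. By peaks per 10 kb Nfil3 stood above 97.1% of all genes in replicate 1 and 96.9% in replicate 2, so its standing was alike in both. All 12 peaks of replicate 1 overlapped a replicate 2 peak, and 27 peaks of replicate 2 stood alone, 15 of them upstream and 8 in the intron. The authors' cut-rate segments, whose false discovery rate is 0.05 at most, covered 11.8% of the window in replicate 1 and 49.6% in replicate 2. NFIL3 is known in immune cells as well as in the clock. The macrophage markers Csf1r, Adgre1, Cd68 and Lyz2 together had 5 peaks in replicate 1 and 131 in replicate 2, from 0 to 3 per gene in replicate 1 and from 4 to 84 in replicate 2. The median cover of their windows was 0.202% in replicate 1 and 30.0% in replicate 2. Every other marker list had more peaks in replicate 2 too. In replicates 1 and 2 hepatocyte markers had 3 and 38, neuron markers 21 and 225, endothelium markers 47 and 125 and muscle markers 181 and 309. The part of macrophages in the Nfil3 result was not tested.

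**Figure D2:**
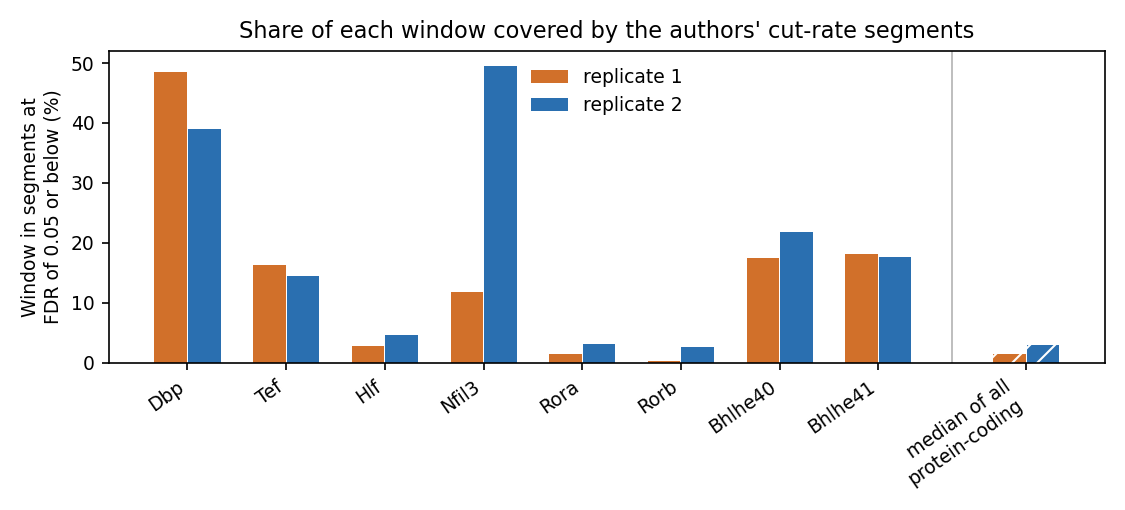
Share of each gene's window (vertical axis, %) covered by the authors' cut-rate segments in each library, with the median over all protein-coding genes hatched at the right. Nfil3 has 49.6% in replicate 2 and 11.8% in replicate 1, Dbp has 38.9% in replicate 2 and 48.5% in replicate 1, and the medians over all genes are 2.91% in replicate 2 and 1.47% in replicate 1.

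Cover at the other genes differed between the libraries in either direction. Dbp had more cover in replicate 1, at 48.5%, than in replicate 2, at 38.9%, and Tef had 16.4% in replicate 1 and 14.4% in replicate 2. Bhlhe40 had 17.5% in replicate 1 and 21.8% in replicate 2, and Bhlhe41 had 18.2% in replicate 1 and 17.7% in replicate 2. Hlf had 2.78% in replicate 1 and 4.53% in replicate 2. Rora, at 1.49% in replicate 1 and 3.09% in replicate 2, was near the medians of all genes. Rorb had 0.338% in replicate 1 and 2.52% in replicate 2, so it too had more cover in replicate 2.

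Bhlhe40, which encodes the E-box repressor DEC1, had 8 shared peaks, and no peak of replicate 1 stood alone. Its 3 shared peaks of best mean rank formed a row before the start, at 1094, 578 and 168 bp upstream. Their signals were 6.996, 4.07 and 5.67 in replicate 1 and 11.6, 11.2 and 15.4 in replicate 2. The nearest to the start holds the E-box printed above, which touched no footprint in either library, and the farthest holds another that touched one in replicate 1. Downstream of the gene 3 shared peaks followed, the strongest at 4.48 in replicate 1 and 8.35 in replicate 2, with an E-prime box in footprints of both libraries. A start cluster 2417 bp into the gene, of a transcript that is not protein-coding, had a peak of replicate 2 alone, at 0.555.

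Bhlhe41, which encodes the paralogous repressor DEC2, had 10 shared peaks and all its starts in 1 cluster. Its start had the weaker sites, with signals of 2.25 in replicate 1 and 3.03 in replicate 2, while a peak centred 1192 bp upstream had 3.92 and 7.55. That upstream peak holds the E-box printed above, at bases 99 to 104 of its stretch, and the E-box touched a footprint in replicate 1. The next strongest lay 14.5 kb from the 5′ end, at 3.54 in replicate 1 and 4.72 in replicate 2, and 9.69 kb from it, at 3.14 and 3.19. In all, 4 shared peaks downstream of the gene lay from 9.69 to 14.5 kb from the 5′ end, with signals from 1.36 to 3.54 in replicate 1 and from 1.56 to 4.72 in replicate 2. Inside the gene 3 shared peaks lay over exons, with signals from 0.638 to 1.76 in replicate 1 and from 0.768 to 3.08 in replicate 2.

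**Figure D3:**
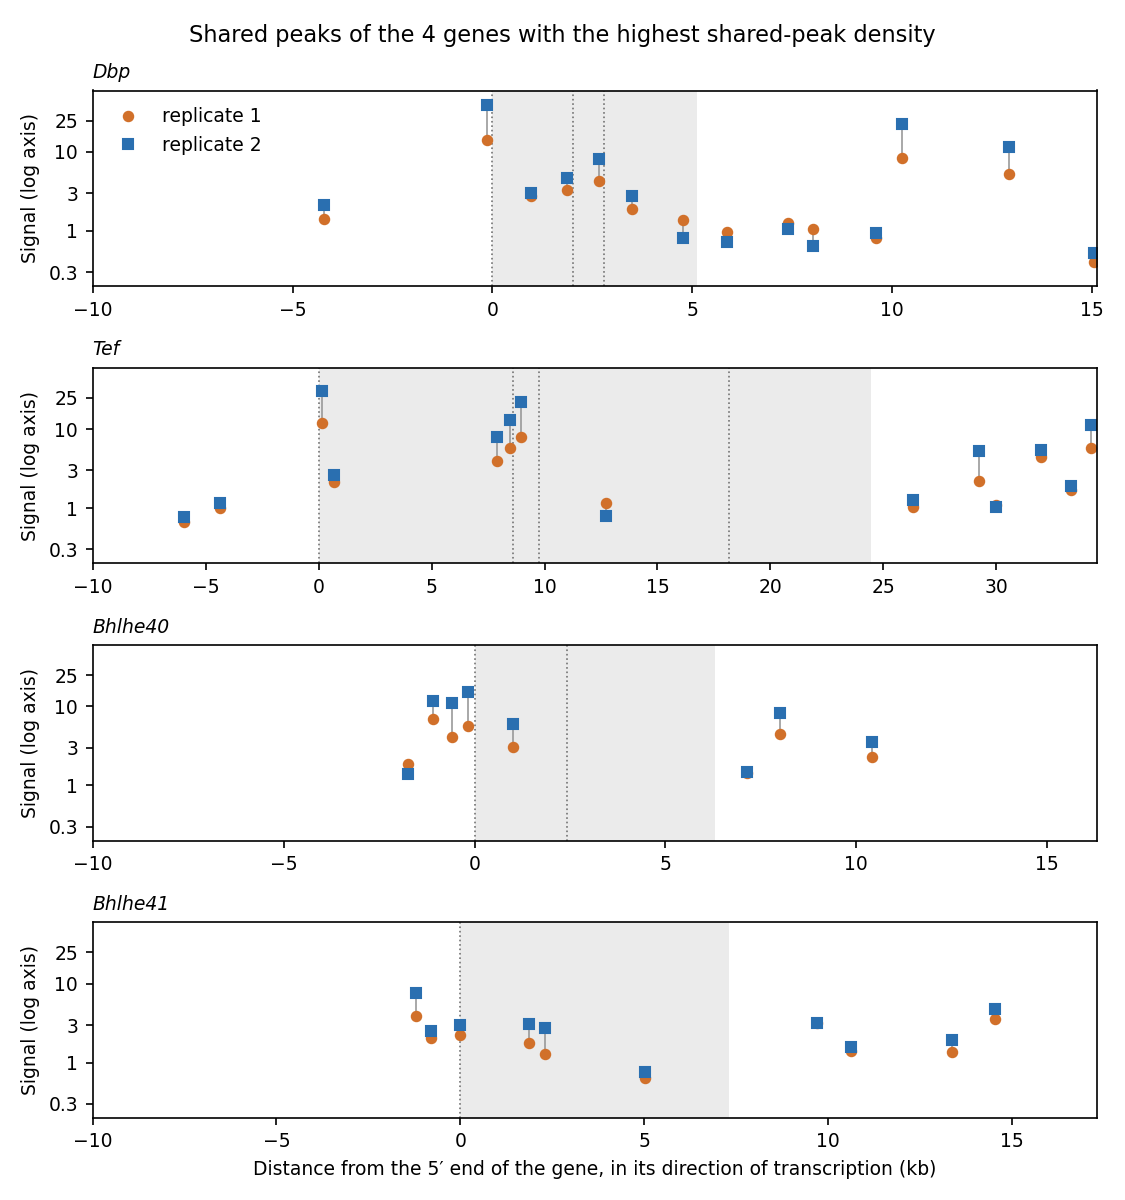
Signal of each shared peak (log axis, the authors' unstated unit, circles for replicate 1 and squares for replicate 2) by distance from the 5′ end in kb for Dbp, Tef, Bhlhe40 and Bhlhe41, with gene bodies shaded and start clusters dotted. Dbp has its highest peak at the start and others over 10 kb away near Sphk2, Tef has high peaks at the start and 8625 bp in, and Bhlhe40 has a row before its start.

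Rora, the ROR receptor gene with wide tissue expression, held its accessible sites inside its introns. Of its 36 shared peaks, 29 were intronic, 6 lay at starts and 1 lay downstream. Intronic signals ran from 0.527 to 4.03 with a median of 0.767 in replicate 1, and from 0.560 to 8.32 with a median of 1.55 in replicate 2. The strongest peak of the gene was intronic, 606 kb in at chr9:69259481-69259700, with signals of 4.03 in replicate 1 and 8.32 in replicate 2. It had 5 footprints in replicate 1 and 4 in replicate 2, which formed 3 pairs. Another intronic peak, 151 kb in, had 2.29 in replicate 1 and 4.55 in replicate 2.

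The internal promoter of Rora was stronger than its first. The start cluster of the shorter transcript, 635896 bp into the gene and with a RefSeq mRNA start within 500 bp, had a leading peak with signals of 3.96 in replicate 1 and 7.31 in replicate 2, stronger than 94.2% and 98.0% of peaks. The first cluster, from which the long transcript starts, had 0.954 in replicate 1 and 1.43 in replicate 2, stronger than 61.9% and 87.5% of peaks. Of the 29 intronic peaks, 11 had a higher signal than that first promoter in both libraries. Clusters 1517 and 541755 bp in, of transcripts that are not protein-coding, had shared peaks as well.

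Along the Rora body, 5 equal parts from the 5′ end held 8, 6, 4, 10 and 6 shared peaks, so sites were spread over the whole gene. The longest stretch without one was 101 kb, from 159.6 to 261 kb into the gene. Replicate 2 had 18, 16, 16, 15 and 18 peaks in the same 5 parts and replicate 1 had 10, 6, 5, 11 and 7. Peaks of replicate 2 alone numbered 48 in the window, 45 of them intronic, and peaks of replicate 1 alone numbered 3.

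Rorb, whose receptor is known from brain, retina and pineal gland, had the fewest and sparsest shared peaks, 3 in 201 kb. These were all the peaks of replicate 1, while replicate 2 had 27 peaks. Its first start had signals of 1.43 in replicate 1 and 3.24 in replicate 2, stronger than 76.3% and 94.6% of peaks, and 4 footprint pairs within 162 bp upstream. A second peak near that start had 0.375 in replicate 1 and 0.729 in replicate 2, and an exon peak 133 kb in had 0.375 in replicate 1 and 0.510 in replicate 2. The second start cluster, 110079 bp in and the start of 2 protein-coding transcripts, had no peak in replicate 1 and 2 weak ones in replicate 2, the stronger at 0.163. In replicate 2, 24 peaks stood alone in the window, 21 of them intronic, at a median signal above only 16.4% of that library's peaks. Neuron marker promoters were accessible for 4 of 6 genes in replicate 1 and 6 of 6 in replicate 2. Over all 21911 protein-coding genes, 13330 were accessible in replicate 1 and 15571 in replicate 2. The windows of the neuron markers held 21 peaks in replicate 1 and 225 in replicate 2. Single genes had from 0 to 10 of these in replicate 1 and from 4 to 180 in replicate 2, and Rbfox3 alone gave the 10 and the 180. The part of nerve in the Rorb result was not tested.

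**Figure D4:**
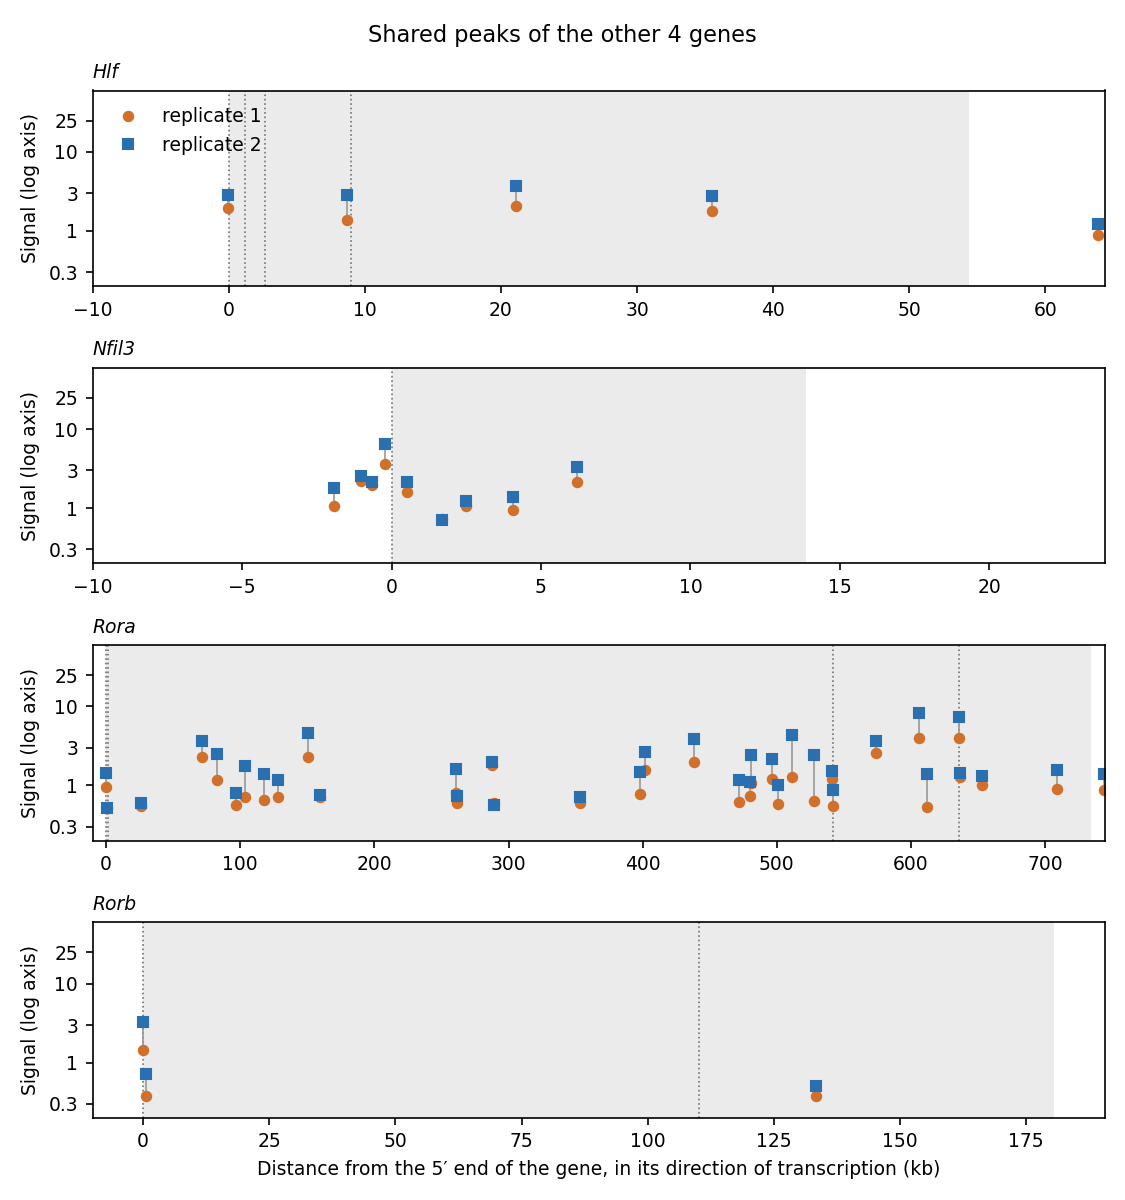
Signal of each shared peak (log axis, the authors' unstated unit, circles for replicate 1 and squares for replicate 2) by distance from the 5′ end in kb for Hlf, Nfil3, Rora and Rorb, with gene bodies shaded and start clusters dotted. Rora shows peaks along its whole body with the highest 606 and 636 kb in, and Rorb shows 3 peaks in all.

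Start clusters, made by joining starts within 500 bp, numbered 21 over the 8 genes, and 16 had a shared peak within 1 kb. The 5′ most cluster had one in 8 of 8 genes, where 55.6% of such clusters had one over all protein-coding genes. Of the 13 later clusters 8 had one, where 16.8% of later clusters had one over all genes. Several of those 8 lie within a few kb of another start and share its peaks, as at Dbp and Tef. Counting only later clusters with a protein-coding transcript, 3 of 5 had a shared peak, namely clusters 2 and 3 of Tef and cluster 4 of Rora. Those of Tef had the same leading peak. Cluster 2 of Rorb and cluster 3 of Hlf had none. No share over all genes is given for later clusters of this kind, so whether 3 of 5 is high is not known.

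**Figure D5:**
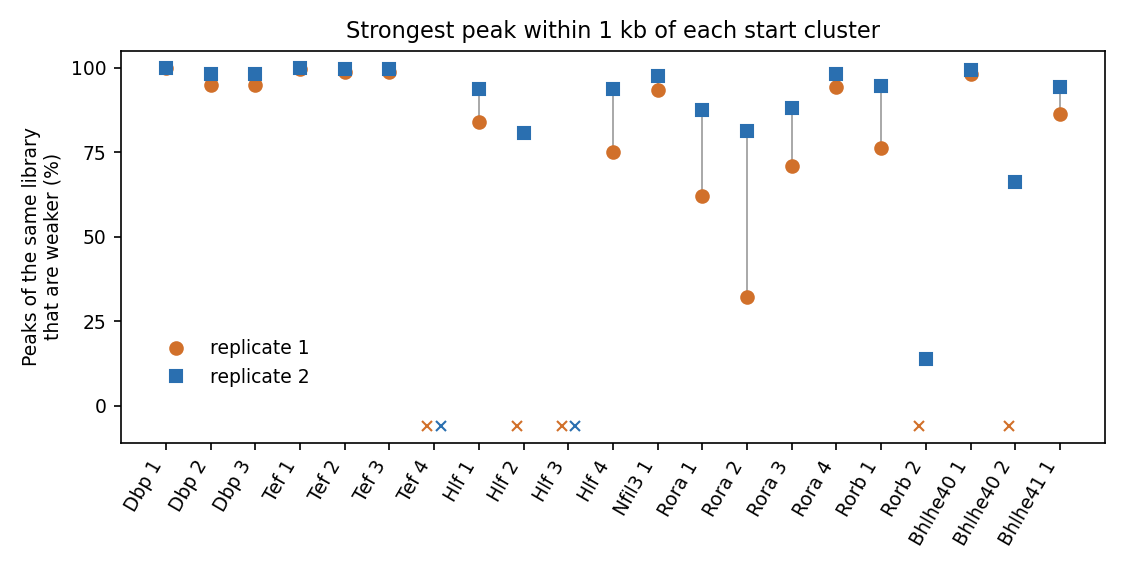
Strongest peak within 1 kb of each start cluster, numbered from the 5′ end, as the share of that library's peaks that are weaker (vertical axis, %), with circles for replicate 1 and squares for replicate 2. Crosses under the axis zero mark clusters with no peak in the library of that colour, and Tef 4 and Hlf 3 have none in either.

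By place, 28 of the 99 shared peaks were within 1 kb of an own start, 35 were intronic, 6 exonic, 8 upstream and 22 downstream. Rora gave 29 of the intronic peaks, Nfil3 4 and Hlf 2, and the other 5 genes had none. A start of any protein-coding gene lay within 1 kb of 36.4% of the members' shared peaks, against 40.5% of all shared peaks. Among the 4916 shared peaks of best mean rank, which are 10% of all shared peaks, were 16 of the 99.

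Footprints in the 99 shared peaks numbered 279 in replicate 1 and 280 in replicate 2, or 9.02 and 9.06 per kb, against 9.06 and 9.96 per kb in all shared peaks. Their overlaps gave 142 pairs in 65 of the peaks, with 53 pairs in promoter peaks, 41 in introns, 32 downstream, 10 upstream and 6 in exons. No share over all shared peaks is given for pairs, so whether these counts are high or low is not known. Dbp had the most promoter pairs at 16, and Bhlhe41 had none at its promoter but 6 over exons. Hlf had the densest footprints, 14.0 per kb of shared peak in replicate 1 and 16.9 in replicate 2, and Nfil3 the fewest in replicate 1 at 6.85.

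The binding words were counted on both strands in 150 bp windows at the centres of shared peaks. No word contains another, and a word that reads the same on both strands was counted once. The E-box CACGTG was in 10 of 99 member windows (10.1%), against 4.97% of the other 49061. The E-prime box CACGTT, added later, was in 6.06% against 2.47%, the D-box TTATGTAA or TTACGTAA in 1.01% against 0.402%, and the ROR element in 6.06% against 4.11%. The CRE was in 3.03% against 1.04%, the muscle E-box CAGCTG in 20.2% against 19.2%, and the MEF2 word in 0 of 99 against 0.701%. These counts are small, and a word is no evidence that a factor was bound.

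Over whole peaks, Tef and Bhlhe41 each held 5 E-boxes, Dbp and Nfil3 4 each, Bhlhe40 2 and Hlf 1, while Rora and Rorb held none in 9.93 and 0.737 kb of shared peak. Of the 21 E-boxes, 6 touched a footprint in replicate 1, 5 in replicate 2 and 1 in both, or 1 of 21 against 18.9% of E-boxes in other shared peaks. All 3 CREs touched footprints of both libraries, as did 67.1% of CREs elsewhere, but only the one of Hlf lies at a member's own promoter, the others being nearer Sphk2 and Ice2. In RefSeq promoters of GRCm38.p6, each 250 bases before to 50 after a start, 7 of the 8 genes matched with 9 promoters. Bhlhe40 and the internal promoter of Rora were not matched. The E-box was in 3 of the 9, at both Tef promoters and at Bhlhe41, against 7.15% of 32851. The CRE was in that of Hlf, against 1.79%.

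Other clock genes, and relatives by protein family, were counted in the same way. Nearly all had open promoters in both libraries, where 60.2% of all protein-coding genes did. Of the 9 core clock genes 9 had a peak at the promoter in each library, with a median of 0.632 shared peaks per 10 kb, from 27 shared peaks at Per1, a repressor gene of the core loop, to 2 at Clock. Of the ROR and REV-ERB partners 3 of 3 did, with a median of 1.32 per 10 kb, from 11 shared peaks at Nr1d1, which encodes REV-ERB alpha, to 3 at Nr1d2. All 4 CEBP genes, bZIP relatives, had one, from 12 shared peaks at Cebpb to 3 at Cebpg, with a median of 3.03 per 10 kb. Of the bHLH relatives 4 of 6 had one, from 9 shared peaks at Heyl to 0 at Bhlhe22, with a median of 0.850 per 10 kb. For the 8 genes described here the median was 2.85, and the lists differ in window length, whose medians were 39.2 kb for the 8 genes, 63.3 kb for the core clock and 23.2 kb for the CEBP genes.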

How the data were processed

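DNase-seq was analysed in 2 libraries of 1 group, on build mm10 per the labels. Peak calling was done separately for the libraries, per the README files among the deposited data. The aligner and the peak caller are not given in the sources used. The authors' peak lists give each peak a signal that is never negative and whose scale is not stated. The authors' footprints carry a p-value column that holds 0.01 in every row. The deposited cut-rate segments carry a p-value column, read as a false discovery rate, and segments at 0.05 or below were used. Sequencing depth is unknown, so no interval or floor was given, and the number of libraries limits the precision.

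The longer of each library's lists was used. Peaks of both libraries that overlapped by 1 bp or more were merged into shared peaks, placed by the mean of the midpoints of the strongest peaks. Counts were made in gene windows, and places were set in the order promoter (1 kb from any start), exon and intron. Start clusters joined starts within 500 bp, and a cluster or gene had a peak if any part of one lay within 1 kb. A word or start was said to touch a footprint or peak from 1 bp on. Share of weaker peaks is over all peaks of a library, ranks over the shared peaks.

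Genes named are the 8 members, the nearest gene to each by density, the genes with fewest and most shared peaks of each related list, and neighbours with nearer starts. The peaks described beyond the 3 of best mean rank per gene, and Rbfox3 and the 4 macrophage markers named, were chosen after their values were seen. Members and lists were chosen with earlier results of these data known. Functions were tested on simulated peaks. Python 3.11.15, numpy 2.4.6, pandas 2.3.3 and matplotlib 3.10.9 were used.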

Additional observations from a re-analysis of the deposited data

How the results depend on the processing

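Promoters of all 8 genes had a peak in both libraries with the shorter peak lists and with equal numbers of strongest peaks. The same held with promoters of 500 bp and with starts of protein-coding transcripts only. Either library alone, promoters of 2 kb and an overlap of 50% of the shorter peak gave 8 genes too. By their rules these last alternatives could not give fewer. The number of start clusters with a shared peak, 16 of 21, ranged from 11 of 13 with protein-coding transcripts only to 19 with replicate 2 alone. Leaving out 1 library gave 127 to 229 peaks in the windows, a median of 3.29 to 4.04 peaks per 10 kb, 39 to 112 intronic peaks, 16 to 19 start clusters and 8 genes with a promoter peak. Footprints in the remaining library's own peaks then numbered 282 to 378, which are single footprints, where the 142 are pairs. Windows of the gene body alone gave 59 shared peaks, a median of 2.02 per 10 kb and 75 footprint pairs, and flanks of 50 kb gave a median of 0.936 per 10 kb, over longer windows. The shorter lists, which hold fewer peaks, gave 19 intronic shared peaks, against 35. Introns set by protein-coding transcripts alone, an alternative chosen after seeing the data, gave 41. Of 56 counts for single genes under the alternatives, 40 stayed within 1.5 times, 7 were higher and 9 lower. Rora had 20 shared peaks with the shorter lists and 36 with the longer ones, Dbp had 8 and 14, and Rorb 1 and 3. Unknown depth and the unstated signal scale limit every comparison between the libraries.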

Other observations

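Peaks of the members that overlapped no peak of the other library numbered 20 in replicate 1 and 121 in replicate 2. Replicate 1's were mostly at Dbp, with 12 of them. The strongest of these, at a signal of 1.59, lay in the gene body within 1 kb of a later start. It fell inside the merged span of the shared peak centred 3498 bp into the gene, though no replicate 2 peak overlapped it. Replicate 2's were mostly at Rora (48), Nfil3 (27) and Rorb (24), and Dbp had 9. The strongest at Tef, with a signal of 1.94 in replicate 2, lay near its start clusters 2 and 3.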
